A study of Mus musculus with 14 samples.

Results

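The choroid plexus genes described here are Ttr, Ecrg4, Kl, Aqp1, Otx2, Clic6, Wfdc2, Sostdc1, Cldn2 and Folr1, 10 of the 16593 genes named on a mouse expression array. They were picked for their known expression in choroid plexus and because they moved in opposite directions on 2 diets in brain, and 15 of the 25697 probes carry their symbols. The values that selected them are therefore the brain intensities of the diet groups. Those values are given below as a description and carry no test, while muscle and the difference between the tissues played no part in the choice.

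Male C57BL/6J mice had been placed at 13 months of age on a control diet eaten ad libitum, on calorie restriction (CR) at 70% of the control food, or on the control diet with 0.066% β-lapachone (βL), a plant quinone that is a substrate of the NAD(P)H-oxidizing enzyme NQO1. RNA of brain, which the series calls cortex, was hybridized on 2 arrays per diet, and RNA of skeletal muscle on 2 control, 3 CR and 3 βL arrays. Nothing in the sources used here says that arrays of a group came from separate mice or which muscle was taken, so the errors and p-values measure the spread between these arrays, which may be technical.

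The choroid plexus is a sheet of secretory epithelium that hangs in the ventricles of the brain over leaky capillaries and makes the cerebrospinal fluid. It lies in the ventricles and not in the cortex itself. Its cells secrete carrier proteins and growth-factor modulators, move water and chloride through apical channels, seal the blood from the fluid with tight junctions that include claudin 2, and pass folate and hormones from blood to fluid. The bulk RNA measured here cannot tell fewer choroid plexus cells in a sample from less RNA of these genes per cell.

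Between 53.9% and 55.4% of probes were above background on the brain arrays and 43.3% to 45.9% on the muscle arrays. Values are bead intensities, given as log2 after background modelling and quantile normalization within the tissue, and a probe is called above background at a detection p under 0.05. Cortical and glial markers checked the tissue label: Slc17a7, Tbr1, Syt1 and Gfap were above background on 6 of 6 brain arrays and 0 of 8 muscle arrays. Mbp, the astrocyte marker Aqp4 and the muscle marker Acta1 were above it on every array of both tissues and did not separate them. The muscle markers Ckm and Mylpf were above it on 0 of 6 brain arrays and 8 of 8 muscle arrays. Foxj1 of ependyma and Slc6a13 and Ogn of the leptomeninges were above it on every brain array, but also on 7, 8 and 8 of 8 muscle arrays. The probe for Snap25 was above it on 0 of 6 brain arrays and was no use as a marker. Muscle control replicate 1 stood apart. Of 19 probes for liver genes, 14, from 10 genes, were above background on that array and on no other muscle array, among them Mup2, a urinary carrier protein of a multigene family, at 2381 against 123 to 159 intensity units. Results that rest on that array are given with and without it.

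All 10 genes lay higher in the βL-fed brains than in the control brains, and 8 lay lower in the CR brains than in the control brains with no overlap of arrays. The median of the 10 log2 differences was -0.66 for CR minus control, 1.21 for βL minus control and 1.73 for βL minus CR, where the medians over all 9956 genes tested in brain were 0.0018, -0.0016 and -0.0063. These shifts are what the genes were selected on. Of the 8 lower genes, Aqp1 and Otx2 were not above background on either CR array. Of 9956 genes, 1854 had CR below control without overlap and 1976 had βL above control without overlap. The same order of CR below control below βL without overlap was shown by 179 or 1.8%.

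The sizes depended on how the background was treated, and the direction of the medians did not. Without background correction the medians were -0.40 for CR minus control and 0.91 for βL minus control, and from the authors' normalized values they were -0.23 and 0.61. No array left out alone changed the sign of a median. The genes were chosen for these shifts on the same arrays, so the constant sign is no independent support for them.

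Of the secreted proteins, Ttr, or transthyretin, carries thyroxine and the retinol-binding protein, and is the main secreted product of choroid plexus. Its probe read 13912 and 11242 intensity units on the control brain arrays, 3709 and 3604 on the CR arrays and 24608 and 22857 on the βL arrays. The CR arrays were far below and the βL arrays above both control arrays, with the arrays of a diet close together. On the normalized log2 scale Ttr was 1.77 lower in CR (SE 0.10, 3.42-fold) and 1.10 higher in βL (SE 0.10, 2.15-fold), so that βL exceeded CR 7.35-fold.

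Ecrg4 encodes a secreted precursor peptide, also called augurin, that is abundant in choroid plexus epithelium. It read 246 and 178 units in control, 114 and 106 in CR and 416 and 410 in βL. No array of one diet reached those of another, and the normalized log2 differences from control were -1.20 in CR and 1.43 in βL (SE 0.10), a 6.18-fold span from CR to βL.

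Wfdc2 encodes a secreted protein with a whey acidic protein domain. Its normalized log2 levels were 6.01 and 5.80 in control, 5.42 and 5.64 in CR and 7.23 and 7.35 in βL. Here the CR arrays lay only just under control (-0.37), while the βL arrays were well above it (1.39, 2.62-fold). A second Wfdc2 probe was not above background on any brain array and moved by at most 0.19 between diets. Sostdc1, a secreted antagonist of bone morphogenetic protein and Wnt signalling, read 6.58 and 6.39 in control, 6.04 and 5.74 in CR and 7.67 and 7.52 in βL on the same scale. It stood 0.60 below control in CR and 1.11 above it in βL, again with no overlap.

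**Figure D1:**
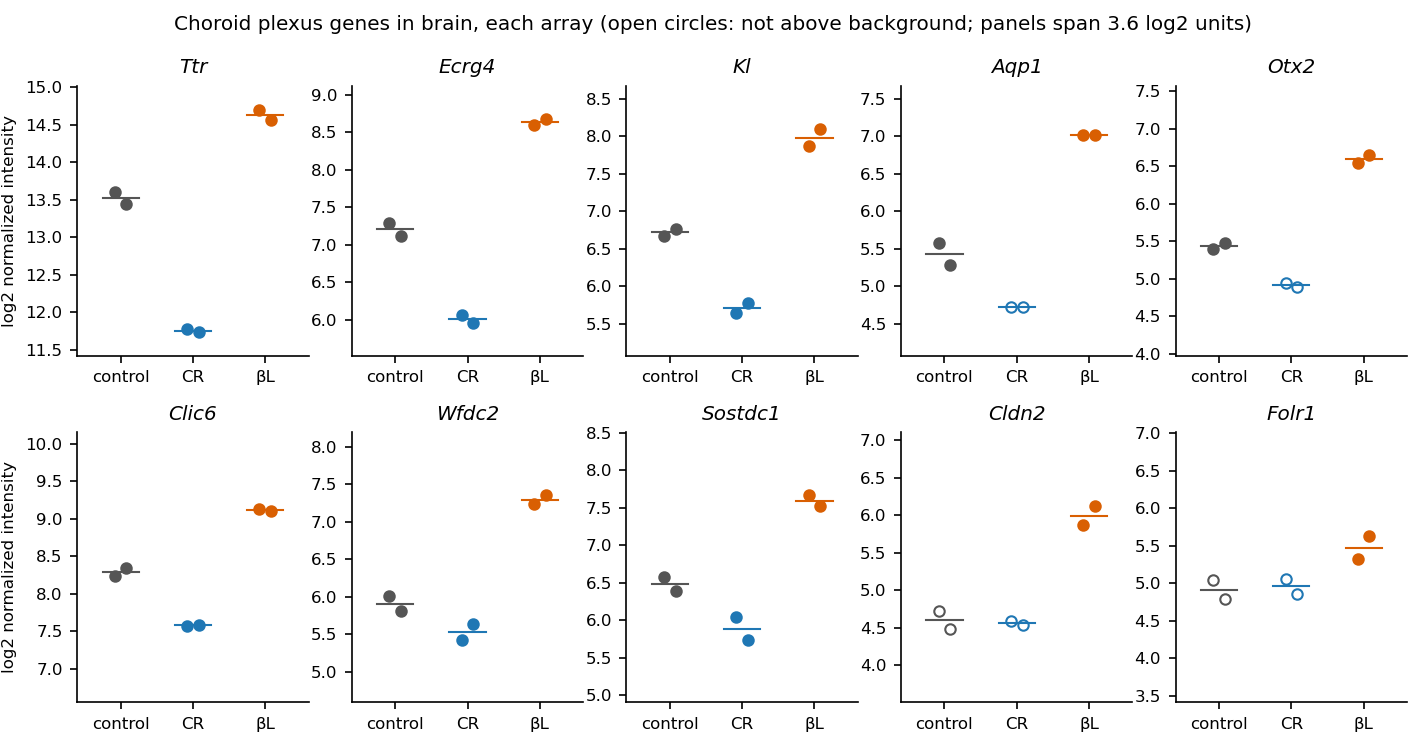
Normalized log2 intensity (vertical axis) of each gene on the 2 control, 2 CR and 2 βL brain arrays, with lines at the group means and open circles for arrays where the probe was not above background. The βL points are the highest in all 10 panels, and the CR points lie under both control points in 8, the exceptions being Cldn2 and Folr1.

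Among membrane proteins, Kl, or klotho, is the co-receptor for the hormone FGF23 and is made mainly in kidney and choroid plexus. One of its probes read 6.67 and 6.76 in control, 5.64 and 5.78 in CR and 7.87 and 8.09 in βL. CR was 1.01 lower and βL 1.26 higher than control on the log2 scale, a 4.81-fold difference between CR and βL. The other Kl probe stayed between 4.45 and 4.65 on all 6 arrays and was never above background, so it carries no information on the diets.

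Aqp1 is the water channel of the apical membrane of choroid plexus, and is also a protein of red cells and of capillaries outside the brain. It had 3 probes. The probe with the highest mean read 5.58 and 5.28 in control, 4.72 and 4.72 in CR and 7.02 and 7.02 in βL. It was above background on the control and βL arrays and on neither CR array, so CR has only a bound: βL was at least 3.40-fold above CR and control at least 1.13-fold above CR. Between groups that were both measured, βL exceeded control by 1.59 on the log2 scale (3.02-fold). A second probe gave the same order with a smaller step, 5.63 and 5.67 in control, 4.99 and 5.0 in CR and 6.35 and 6.66 in βL. The third was above background on 1 of the 6 arrays, βL replicate 2.

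Clic6 encodes a chloride intracellular channel protein of secretory epithelia. It read 8.24 and 8.35 in control, 7.58 and 7.58 in CR and 9.13 and 9.11 in βL, and it was above background throughout. The steps were close to equal in size, 0.71 down and 0.82 up.

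Cldn2 and Folr1 were near or under the detection limit. Cldn2 forms cation-selective pores in the tight junctions of the epithelium. It was above background on both βL arrays, at 5.87 and 6.12, and on none of the others, where it read 4.72 and 4.49 in control and 4.59 and 4.53 in CR. βL was therefore at least 1.67-fold above control and at least 1.66-fold above CR, and CR and control cannot be ordered. Folr1 is the folate receptor that carries folate from blood to cerebrospinal fluid. Both its probes were below background on every control and CR array. One was above background on both βL arrays, at 5.32 and 5.63, which was at least 1.17-fold above control, and the other on βL replicate 2 alone.

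Otx2 is the homeodomain transcription factor that the choroid plexus needs in order to form and to persist. Its probe read 5.40 and 5.47 in control, 4.94 and 4.89 in CR, where it was not above background, and 6.54 and 6.65 in βL. The βL arrays were 1.16 above control on the log2 scale (2.23-fold), and at least 2.52-fold above CR.

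**Figure D2:**
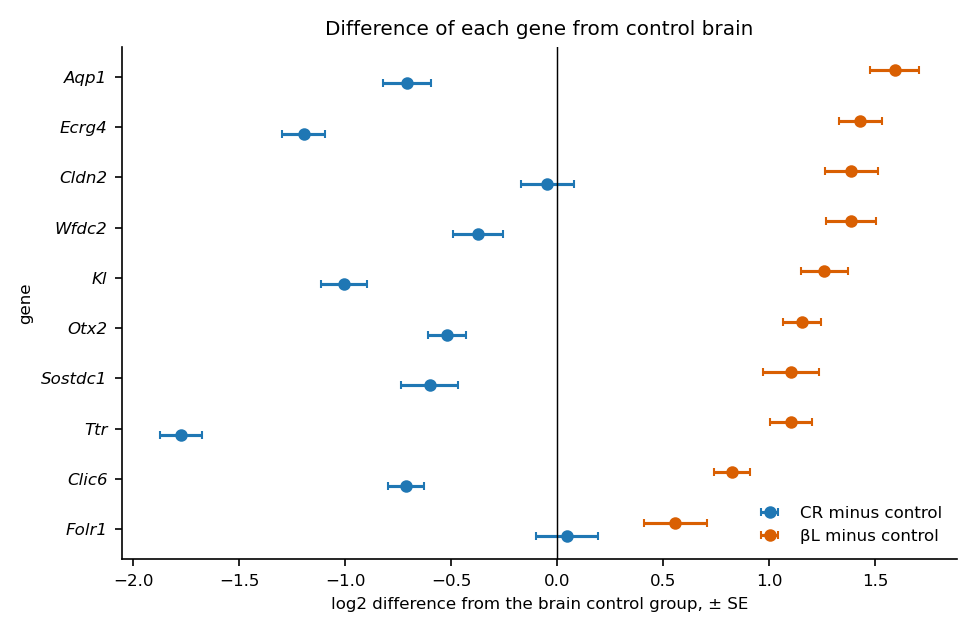
Log2 difference of the CR group (blue) and the βL group (orange) from the brain control group for each gene, horizontal axis, with the standard error of the fit as bars (2 arrays per group). The βL differences run from 0.56 for Folr1 to 1.59 for Aqp1 and the CR differences from -1.77 for Ttr to 0.05 for Folr1. The CR values of Aqp1 and Otx2, and all values of Cldn2 and Folr1, involve a group below background.

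The genes did not move in proportion. Ttr differed by more in CR (-1.77) than in βL (1.10), and Wfdc2, with a CR difference of -0.37, had a βL difference of 1.39. Taking the smaller of the 2 steps of each gene, Ecrg4 led with 1.20, followed by Ttr with 1.10 and Kl with 1.01. Requiring fitted differences of at least 1.5-fold both ways and no overlap left 10 genes of all those tested. Of these, 6 were members (Ecrg4, Ttr, Kl, Clic6, Aqp1 and Sostdc1), 1 was Kcne2, and 3 were on neither choroid plexus list: Alas2, Egr2 and Pmch. The members were chosen for such opposite shifts, so their share of these 10 follows from the choice. Aqp1, Kcne2 and Pmch were not above background in CR, where control was only bounded, at least 1.13-, 1.46- and 1.04-fold above CR, so that 1.5-fold is not shown for them.

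Promoter sequence was held for 6 of the 10 genes (RefSeq, GRCm38.p6), as 10 windows from 250 bases before to 50 bases after a transcription start, 4 of them of Otx2 and 2 overlapping ones of Wfdc2. They were searched on both strands for TAATCC, the bicoid-type core that OTX2 binds, and for the fork-head core TGTTTAC. The first was in 1 of the 10 member windows and in 7.06% of the 32851 windows of all genes, and the second was in 0 and in 3.65%. The matching window belongs to Otx2 itself and is printed first, with the match in capitals (it lies on the opposite strand and so reads as its reverse complement), beside the windows of 3 members with large steps that hold neither motif. A match is a description of the letters and not a measured site.
Otx2 (chr14:48665060-48665359, minus strand): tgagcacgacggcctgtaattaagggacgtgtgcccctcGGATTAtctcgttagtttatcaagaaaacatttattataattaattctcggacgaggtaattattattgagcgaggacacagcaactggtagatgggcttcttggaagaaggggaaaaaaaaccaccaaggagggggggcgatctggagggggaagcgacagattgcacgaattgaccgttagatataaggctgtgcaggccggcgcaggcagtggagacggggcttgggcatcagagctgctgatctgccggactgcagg
Ecrg4 (chr1:43730352-43730651, plus strand): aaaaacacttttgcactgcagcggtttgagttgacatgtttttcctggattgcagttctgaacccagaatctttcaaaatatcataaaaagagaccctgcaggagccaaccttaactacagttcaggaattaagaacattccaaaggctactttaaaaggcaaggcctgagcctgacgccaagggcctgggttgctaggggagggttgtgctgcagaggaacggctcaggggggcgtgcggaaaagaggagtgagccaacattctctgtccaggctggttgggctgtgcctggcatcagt
Kl (chr5:150952357-150952656, plus strand): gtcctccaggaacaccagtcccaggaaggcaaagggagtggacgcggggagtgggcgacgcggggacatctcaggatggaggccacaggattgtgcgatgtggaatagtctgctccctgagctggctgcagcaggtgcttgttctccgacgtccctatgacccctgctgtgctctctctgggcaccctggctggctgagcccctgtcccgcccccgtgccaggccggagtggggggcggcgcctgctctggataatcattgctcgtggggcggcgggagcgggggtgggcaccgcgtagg
Aqp1 (chr6:55336049-55336348, plus strand): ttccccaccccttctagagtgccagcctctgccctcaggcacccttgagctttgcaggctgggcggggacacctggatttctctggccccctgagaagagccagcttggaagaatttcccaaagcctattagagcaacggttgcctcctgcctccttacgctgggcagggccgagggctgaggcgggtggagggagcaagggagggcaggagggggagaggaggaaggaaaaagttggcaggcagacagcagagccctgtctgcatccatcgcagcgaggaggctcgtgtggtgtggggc

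A list of 56 other choroid plexus genes asked whether further genes of the epithelium moved with these. The list was drawn up with earlier results of these data known. Of its genes 49 were on the array and 30 were tested in brain. By limma's moderated test 0 passed an adjusted p of 0.05 in CR against control, where 0.221% of all genes fell and 0.01% rose, and 0 in βL against control, where 0.151% rose and 0.181% fell. Before adjustment 9 of the 30 in CR and 11 in βL had a p below 0.05, beside 810 and 868 of all 9956 genes. With the methods' t-test these were 2 and 4, beside 690 and 776. In βL against CR, 4 were higher and 0 lower, where 0.261% of all genes were higher and 0.0201% lower. Before adjustment 18 of the 30 had a p below 0.05, beside 932 of the 9956. The count depended on single arrays: it was 3 without either control array, 1 without CR replicate 1, and 0 without CR replicate 2 or either βL array. With the methods' t-test the count was 12 at an unadjusted p under 0.05 and 0 after Benjamini-Hochberg adjustment.

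The 4 genes were Kcne2, Rdh5, Lbp and Slc29a4. Kcne2, a potassium channel subunit of the apical membrane, read 5.94 and 5.66 in control, 4.89 and 5.13 in CR and 6.38 and 6.64 in βL on the normalized log2 scale, a βL minus CR difference of 1.50 (adjusted p = 0.0136, limma). It was not above background on the CR arrays, so βL was at least 2.38-fold above CR. Rdh5, a retinol dehydrogenase, read 6.88 and 6.74, 6.41 and 6.33, and 7.30 and 7.34 in the same order, a difference of 0.95 (adjusted p = 0.0117, limma). Slc29a4, a monoamine transporter, differed by 0.90 and Lbp, the lipopolysaccharide-binding protein, by 0.96 (adjusted p = 0.028 and 0.032, limma). Lbp was not above background in CR either, which makes βL at least 1.66-fold higher, and its βL arrays at 6.02 and 5.96 lay close to control at 5.92 and 5.64. With 1 of the 6 arrays left out, Kcne2, Rdh5 and Lbp stayed called in 2 of 6 fits and Slc29a4 in 1, and the adjusted p of the 4 rose to between 0.181 and 0.439 (limma).

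Over all 30 genes, the 4 called ones included, the median βL minus CR difference was 0.30 on the log2 scale and 24 were above 0, beside a median of -0.0063 over all genes. The next genes by the moderated F-test were Car12, a carbonic anhydrase (0.67), Slc4a2, an anion exchanger (0.54), Calml4 (0.93), Vat1l (0.45), the homeobox gene Msx1 (0.53) and the sulfatase Sulf1 (0.50), and none of these passed in βL against CR (adjusted p from 0.15 to 0.265, limma). The broadly expressed ion-transport genes Atp1b1, Cab39l and Stk39 differed by 0.04, 0.10 and -0.0048. By role, 1 of 9 ion and water transport genes, 2 of 10 solute and vitamin carriers, 1 of 6 secreted and plasma proteins, 0 of 1 signalling gene and 0 of 4 epithelial and regulatory genes were called in βL against CR.

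**Figure D3:**
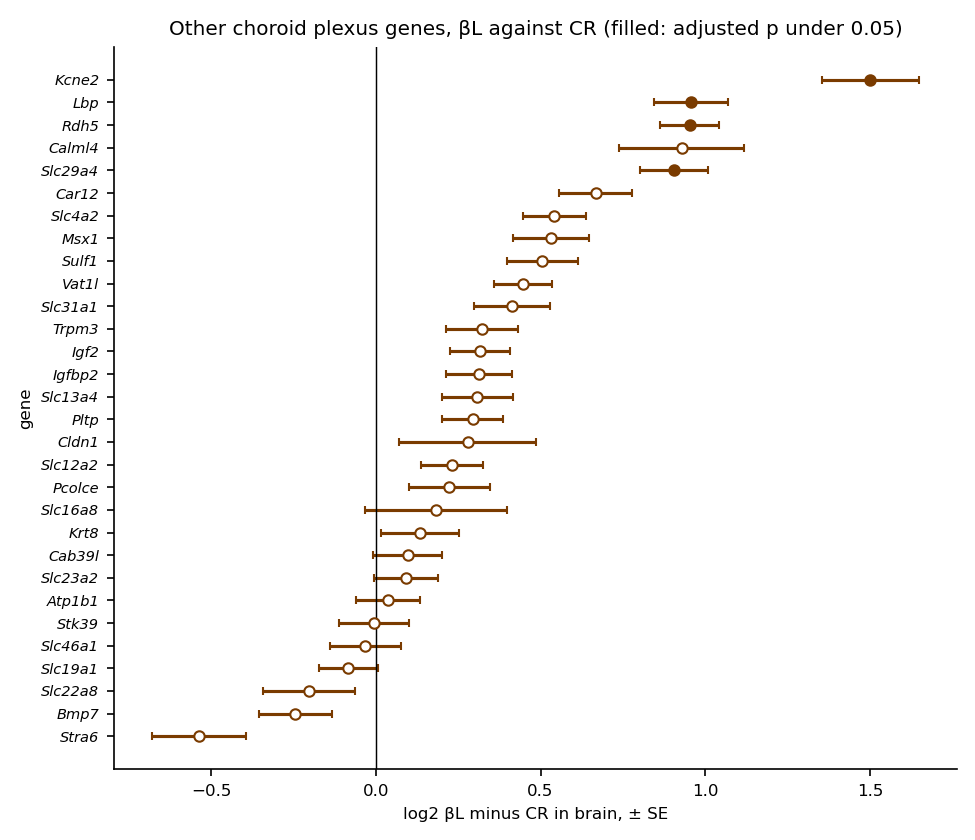
Log2 difference of βL from CR in brain (horizontal axis, ± SE of the fit, 2 arrays per group) for the 30 tested genes of the second choroid plexus list, filled where the adjusted p was under 0.05. Kcne2 stands at 1.50, Lbp, Rdh5 and Slc29a4 between 0.90 and 0.96, Calml4, not called, at 0.93, and 6 genes lie below 0.

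Cells that lie next to the choroid plexus were followed by lists of their own genes. The median of 8 genes of ependyma and motile cilia, centred on the mean of the 6 arrays, was 0.05 and 0.03 in control, -0.07 and -0.12 in CR and 0.01 and 0.01 in βL. The CR arrays were the lowest, with 6 of 8 genes below 0 in CR minus control, and the βL arrays lay below the control arrays. The median of 12 leptomeningeal genes lay between -0.09 and 0.13 on the 6 arrays. Medians for astrocytes, oligodendrocytes and neurons lay between -0.07 and 0.08. By limma 0 genes of these 5 lists passed the threshold in any diet comparison, and 0 to 4 genes of a list had an unadjusted p under 0.05. The median of 8 endothelial and pericyte genes was -0.04 and 0.02 in control, -0.13 and -0.11 in CR and 0.02 and 0.07 in βL. In βL minus CR all 8 lay above 0, and 1 had an unadjusted p under 0.05 (limma). In βL minus control 5 lay above 0 and 3 below, and 0 were called in any comparison. The median of the 10 choroid plexus genes ran from -0.84 to 1.09, but they were selected on such shifts, so its wider span was fixed by the choice. That of the 30 other choroid plexus genes was 0.01 and -0.03 in control, -0.13 and -0.12 in CR and 0.18 and 0.14 in βL.

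Some genes of other origins also differed between the diets. Of 8 red blood cell genes 4 were tested, and their summed intensity was 6133 to 6203 in control, 4575 to 4901 in CR and 11169 to 12220 in βL. Hba-a1, a hemoglobin chain, read 12.49 and 12.47 in control, 12.15 and 12.05 in CR and 13.36 and 13.49 in βL (βL minus CR 1.33, adjusted p = 0.00378, limma), and Hbb-bt and the heme synthesis gene Alas2 had the same order. The fourth, Fech, the ferrochelatase of heme synthesis, differed from control by 0.14 in CR and -0.11 in βL and was not called. Slc4a1, the band 3 protein of red cells, was above background on 1 brain array. Of 12 thalamus and habenula genes 8 were tested, with a median of -0.12 and -0.11 in control, -0.16 and -0.10 in CR and 0.12 and 0.34 in βL, and a summed intensity of 7788 to 8387, 7178 to 7318 and 8237 to 8467. Prkcd, a kinase of thalamic relay neurons, rose by 1.39 in βL against control (adjusted p = 0.00341, limma) and did not fall in CR (0.15). The 7 hypothalamic genes tested had a median of 0.07 in βL minus control, with 5 above 0 and 2 below, the lowest at -0.54. Of these, Pmch, the melanin-concentrating hormone precursor, rose by 0.97 and Gal, galanin, by 1.07 in βL against control (adjusted p = 0.0498 and 0.00776, limma), and the summed intensity was 4207 to 4329 in control, 4034 to 4106 in CR and 4571 to 4582 in βL. These calls depended on single arrays. With 1 of the 6 left out, the βL against control calls of Prkcd, Gal, Pmch, Hba-a1 and Hbb-bt did not hold in every fit. Nor did the βL against CR calls of Hba-a1, Hbb-bt and Alas2. The 3 cerebellum genes tested had a median of -0.15 and -0.13 in control, -0.23 and -0.06 in CR and 0.21 and 0.15 in βL. All 3 lay above 0 in βL minus control, 2 with an unadjusted p under 0.05 (limma), and 0 were called. Other lists went down. Of 8 microglia genes, 7 lay below 0 in CR and 6 in βL against control, and 5 had an unadjusted p under 0.05 (limma) in each. In βL against control, 7 of 8 striatum genes and 4 of 6 hippocampus genes lay below 0, and 3 of each list had such a p. No gene of these lists was called. In muscle, 5 red blood cell genes were tested, and all 5 lay above 0 in both diets against control. Their median log2 difference there was 0.26 in CR and 2.39 in βL. In that tissue 0 in CR and 4 in βL had an unadjusted p under 0.05 (limma), beside 456 and 922 of all 8898 genes. None was called. The part that blood, or tissue from outside the cortex, had in the choroid plexus values was not tested.

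**Figure D4:**
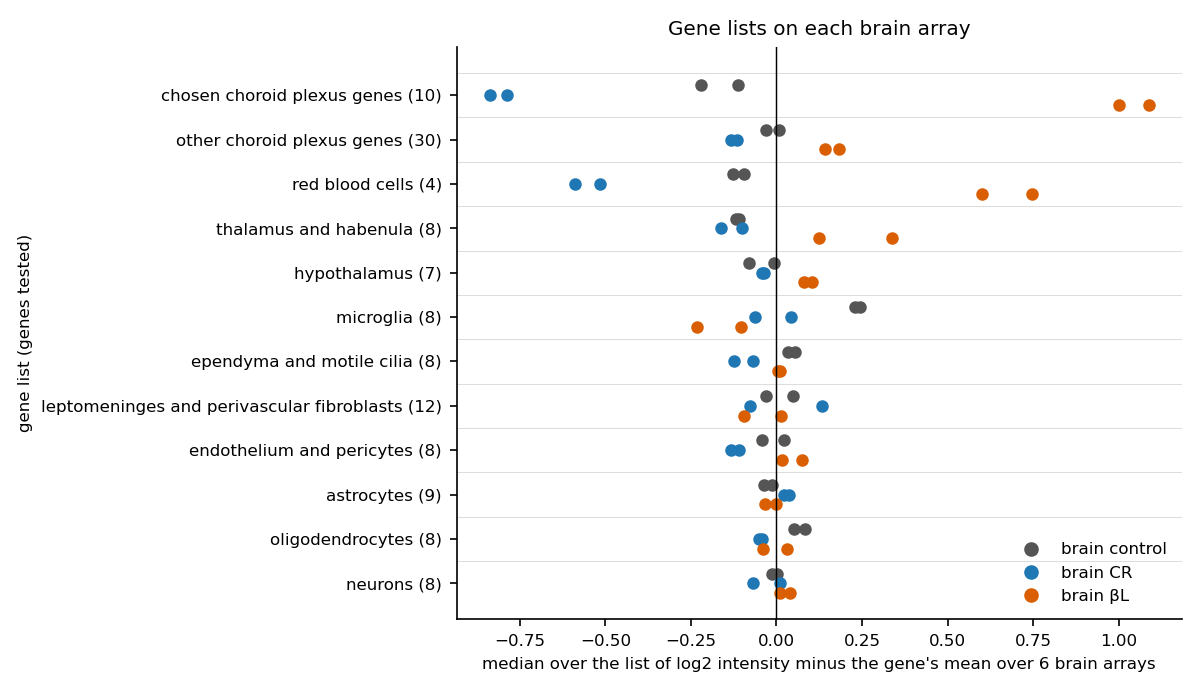
Median over each gene list of the log2 intensity minus the gene's mean over the 6 brain arrays (horizontal axis), 1 point per array, with the number of genes tested in brackets. The chosen choroid plexus genes, the red blood cell genes and, from -0.13 to 0.18, the other choroid plexus genes separate into CR, control and βL. The microglia list is highest in control (0.24 and 0.23), and the ependymal and meningeal lists lie between -0.12 and 0.13.

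The genes whose profile over the 6 brain arrays was nearest to that of the members were of mixed kinds. Likeness was the root mean square difference, in log2 units, between a gene's centred values and the mean centred profile of the 10 members, which was -0.10 and -0.23 in control, -0.83 and -0.87 in CR and 0.98 and 1.06 in βL. The members themselves lay at 0.10 to 0.56 with a median of 0.20. Their closeness is built in, since the profile is their own mean and they were chosen for this shift. The median over all genes was 0.78. The nearest 10 others were Pmch (0.14), Alas2 (0.18), Hba-a1 (0.23), Kcne2 (0.23), Egr2 (0.26), Hbb-bt (0.30), Prkcd (0.37), Rdh5 (0.39), Mgarp (0.40) and Rbm47 (0.42). Mgarp was above background on the βL arrays alone, and Kcne2 on neither CR array. Pmch read 5.41 and 5.23 in control, 4.82 and 4.61 in CR and 6.18 and 6.40 in βL, and it was above background on 3 of the 6 arrays and on neither CR array. Egr2, an immediate early transcription factor of active neurons, read 8.82 and 9.04, 8.18 and 8.13, and 9.56 and 9.57 in the same order. Of 4 other immediate early genes, Npas4, Arc and Fos fell in CR against control, by 1.34, 0.89 and 0.82 (adjusted p = 0.00458, 0.0224 and 0.0295, limma). With 1 array left out these calls held in 3, 0 and 0 of 6 fits. Their βL minus control values were -0.05, 0.19 and 0.21 and did not pass, and Egr1, at -0.18 in CR and 0.27 in βL, passed in neither. In βL minus CR, Npas4, Arc and Fos differed by 1.29, 1.08 and 1.03 (adjusted p = 0.00412, 0.00662 and 0.00734, limma). Egr1 differed there by 0.45 and was not called.

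In muscle, 3 of the 10 genes were above background on enough arrays to be tested, and 0 of them differed between diets by limma, none with an unadjusted p under 0.05. Over all 8898 genes, 0% passed in CR against control (456 at an unadjusted p under 0.05), 0.0225% in βL against control and 0.0225% in βL against CR. Aqp1 was bright on all 8 arrays, at 13.62 ± 0.12 (SD, n = 2) in control, 13.62 ± 0.29 (n = 3) in CR and 13.58 ± 0.15 (n = 3) in βL. All 3 of its probes were above background on 8 of 8 arrays there, including the one that was seen on only 1 brain array. Its muscle differences were 0.01 for CR and -0.03 for βL against control (SE 0.19, adjusted p = 0.998 and 0.969, limma).

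Clic6 and Sostdc1 were above background on 6 of 8 muscle arrays each. Clic6 was 0.32 higher in βL than in control (SE 0.38, adjusted p = 0.815, limma) and Sostdc1 0.23 higher (SE 0.25, adjusted p = 0.798, limma). Both were lowest on muscle control replicate 1, at 5.24 and 5.18 against 6.39 and 6.01 on the other control array, and without that array the βL differences were -0.26 and -0.19. The remaining genes were close to the detection limit. Ecrg4 was above background on βL replicate 1 alone (5.56), Wfdc2 on βL replicate 3 alone (7.12, against 4.78 to 5.24 elsewhere), and Kl, Otx2, Cldn2 and Folr1 on none.

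Ttr was above background on 1 muscle array, control replicate 1, where it read 873 intensity units against 129 to 160 on the other 7. This was the array with the liver transcripts, and Ttr is also a major product of liver. On it Apoa2, an apolipoprotein of liver, read 1484 against 122 to 143 elsewhere. The part that RNA of liver had in this value was not tested.

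Between tissues, Aqp1, Clic6 and Sostdc1 could be tested, being above background on most arrays of each. All 14 arrays were normalized together and the diets averaged, and by limma 38.2% of the 10827 genes tested were called higher in brain and 44.6% higher in muscle. Aqp1 was 7.78 higher in muscle on the log2 scale (221-fold, adjusted p = 1.14e-15, limma), with every muscle array above every brain array. Its probe was above background on 4 of 6 brain arrays and on neither CR array, so the fold rests partly on background. Over the processing alternatives, brain minus muscle ran from -8.21 to -6.28 for Aqp1. Clic6 was 1.88 higher in brain (adjusted p = 3.49e-06, limma), with every brain array above every muscle array. Both calls held in 14 of 14 fits that left out 1 array.

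Sostdc1 was 0.37 higher in brain and only just past the threshold (adjusted p = 0.0354, limma), and the arrays of the tissues overlapped. It was not past it without muscle control replicate 1 (0.20, adjusted p = 0.107, limma) or with the replicate number as a block (0.38, adjusted p = 0.0608, limma). It was called in 7 of 14 fits that left out 1 array, lost also without replicate 1 of any brain group, muscle CR replicate 1 or muscle βL replicate 2 or 3.

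The other 7 genes entered this comparison through brain, where they were chosen, and were above background on at most 1 muscle array, so their tissue differences are given without a test. Ttr differed by 8.05 (SE 0.55), and by 8.81 without muscle control replicate 1. Ecrg4 differed by 1.87 and Wfdc2 by 0.69, each with 7 of 8 muscle arrays at background. Kl was at least 1.75-fold higher in brain, and for Otx2, Cldn2 and Folr1 no fold can be bounded.

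**Figure D5:**
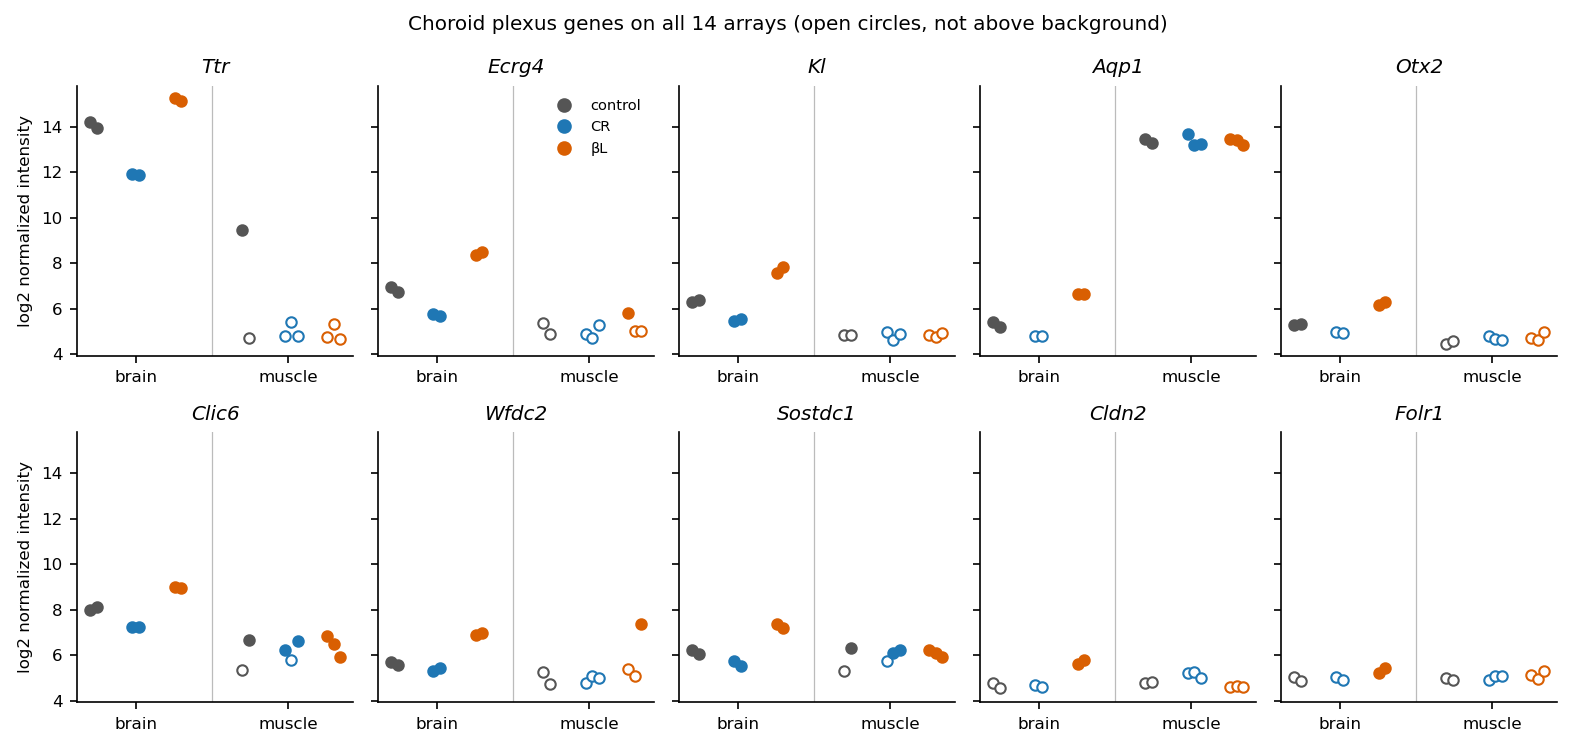
Log2 intensity of each gene on all 14 arrays after normalization of both tissues together (vertical axis), brain on the left and muscle on the right of each panel, with open circles for arrays not above background. Ttr is high on all brain arrays and on 1 muscle control array, and Aqp1 is high on all 8 muscle arrays.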

How the data were processed

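RNA of brain (6 arrays) and skeletal muscle (8 arrays) had been amplified with a biotin label and read on Sentrix Mouse-8 v2 arrays of Illumina. The intensities before normalization, per probe and array, and the detection p-values beside them, which compare a probe with negative control beads, were deposited by the authors from BeadStudio. The authors' quantile-normalized intensities, on a linear scale, were used as an alternative. The members and gene lists were chosen with earlier results of these data known.

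Here normexp (limma 3.58.1, R 4.3.3) removed the background, using the detection p-values to infer the negative controls, and 16 was added as offset. Quantile normalization, done apart in each tissue, and log2 followed. A gene was kept if 2 or more arrays of the tissue had a detection p below 0.05, and its brightest probe on average stood for it, giving 9956 genes for brain, 8898 for muscle and 10827 for both. Every probe of a member was read. Of 25697 probes, 23978 were annotated with 1 symbol and 1719 with none. Levels of different probes were not compared.

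One model took the 3 diets of each tissue (lmFit, eBayes), and another the tissues over all 14 arrays, with Benjamini-Hochberg adjustment over all genes. Calls were made below an adjusted p of 0.05. The fit was tested on simulated data. Where no array of a group had a probe above background, the fold is a lower limit, set by giving each dim array its own signal or the lowest signal detected on it, whichever was larger. The number of arrays limits the precision. Named genes were all members, the 10 other choroid plexus genes with the smallest moderated F-test p over the brain diets, the 10 genes nearest to the members' profile, and liver genes above background in muscle. Up to 3 genes of each cell or region list by the same p were planned. Those described were mainly the called genes of the red cell, thalamus and hypothalamus lists. Npas4, Arc, Fos, Egr1 and Fech were named after their values were seen. Alternatives changed the background correction, offset, normalization, dim-probe filter, probe choice, arrays in the fit, array weights, test and replicate block, and left out each array in turn.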

Additional observations from a re-analysis of the deposited data

How the results depend on the processing

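In brain, the members' median log2 difference kept its sign in all 3 comparisons under every alternative run, and its size followed the background. The members were chosen for these shifts on the same arrays, so the constant sign is no independent support. For CR minus control it was -0.40 without background correction, -0.23 with the authors' values, -0.38 with an offset of 50 and -0.51 with all 14 arrays normalized together. For βL minus control the same settings gave 0.91, 0.61, 0.95 and 1.13, and for βL minus CR the first 3 gave 1.26, 0.83 and 1.34. Leaving out 1 array at a time gave -0.71 to -0.55 for CR minus control and 1.12 to 1.23 for βL minus control. Aqp1 changed probe under some of these settings. Of the members, Cldn2 and Folr1 changed sign in CR minus control when an array was left out (-0.16 to 0.068 and -0.080 to 0.17), and both are below background there.

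The number of genes called in brain varied more. For CR minus control (23) it was 36 with the authors' values, 8 with only the groups compared and 3 to 8 with 1 array left out. For βL minus control (33) it was 62 without background correction, 69 with the authors' values, 59 with the larger offset, 56 with all arrays together and 2 to 27 with 1 array left out. For βL minus CR (28) it was 44 with the authors' values and 5 to 22 with 1 array left out. The methods' t-test gave 690, 776 and 733 genes at an unadjusted p under 0.05 and 0, 0 and 2 after adjustment. For the other choroid plexus genes it gave 2, 4 and 12 unadjusted and 0 adjusted, and the 4 called in βL against CR became 0 to 3 with 1 array left out.

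The replicate numbers did not pair the brain arrays (correlations of the replicate 1 deviations 0.18, 0.03 and -0.11). With the number as a replicate block the CR minus control count was 15, the other choroid plexus genes called in βL against CR were 2, the muscle βL minus control count was 0, Sostdc1 lost its call between tissues (0.38, adjusted p = 0.0608, limma) and Aqp1 in muscle was 0.047 for βL minus control.

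In muscle, the βL minus control count (2) was 5 without background correction, 4 with the authors' values or median scaling, 6 with the larger offset, 1 with all arrays together, without the dim-probe filter or with every probe, 0 with array weights and 0 to 33 with 1 array left out. The βL minus CR count (2) was 4 with the authors' values, 1 with all arrays together, without the filter or with only the groups compared, and 1 to 18 with 1 array left out. The CR minus control count (0) became 5 without control replicate 2. The t-test gave 395, 501 and 758 unadjusted and 0 in each adjusted. The muscle values of Aqp1, Clic6 and Sostdc1 had no settled sign: CR minus control for Aqp1 was -0.090 with median scaling and -0.00091 with array weights, and with 1 array left out the ranges were -0.16 to 0.10, -0.45 to 0.71 and -0.25 to 0.59. For βL minus control they were -0.12 to 0.053, -0.26 to 0.90 and -0.19 to 0.65, and for βL minus CR -0.14 to 0.13, -0.016 to 0.43 and -0.075 to 0.16.

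Between tissues, Aqp1 and Clic6 kept their calls under every alternative fitted to single genes, and with median scaling Cldn2 (-0.10) and Folr1 (-0.19) changed sign. The BeadChip was not fitted as a block because the sources used here do not place arrays on chips. The causes of these differences were not tested, and the 2 or 3 arrays of a group limit every value.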
